A study of Mus musculus with 2 samples.

Results

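The genes examined here are 10 components of the neuromuscular junction, the synapse at which a motor axon drives a skeletal muscle fibre. They were taken as a list by name (Musk, Lrp4, Dok7, Rapsn, Chrna1, Chrnb1, Chrnd, Chrng, Ache and Colq), and all 10 were present among the 32287 genes of the count matrix. The data came from the GFP+ cells of tibialis anterior and gastrocnemius muscle of S100GFPtg mice, in which the S100B promoter drives green fluorescent protein, taken 7 days after crush of the sciatic nerve. The labels call them WT, which here means the transgene with both Sod1 alleles intact (Sod1+/+). They were males of 2 months. Muscle was digested with enzymes, live cells were sorted on GFP, and 1 droplet library was sequenced from them. Its counts are unique molecular identifiers (UMIs), each standing for 1 captured RNA molecule. No uninjured library and no counts of the GFP- library were analysed here, so levels are compared between cell classes of the injured muscle and not with intact muscle. With 1 library there is no replicate, the sources differ on whether 1 mouse or a pool of mice was used, and no test was run. Intervals are exact 95% intervals and cover counting error only.

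At the junction the nerve releases agrin, which binds LRP4. LRP4 then activates the kinase MuSK, whose adaptor DOK7 sustains the signal, and rapsyn, encoded by Rapsn, clusters the acetylcholine receptors beneath the nerve ending. The receptor is a pentamer built of alpha, beta and delta subunits (Chrna1, Chrnb1, Chrnd) with gamma (Chrng) in embryonic and denervated muscle or epsilon (Chrne) in innervated adult muscle. Acetylcholinesterase (Ache), anchored in the cleft by the collagen tail ColQ, ends transmission. In denervated muscle the receptor subunit genes are known to be switched on again along the fibre by myogenic factors such as myogenin, which bind E-boxes, short DNA motifs of the form CANNTG.

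Promoter sequence is shown for the subunit genes Chrna1 and Chrng, whose whole windows lay outside the gene and both of which had their highest level in the barcodes of the myoblast gate. RefSeq (GRCm38.p6) held promoter entries for 6 of the 10 genes, Chrna1, Chrnb1, Chrng, Musk, Dok7 and Ache, and none was read for Chrnd, Rapsn, Lrp4 and Colq. The lines give the 250 bases before the start site, 5′ to 3′ in the direction of the gene, with each CANNTG in capitals. They lie at chr2:73580339-73580588 on the minus strand for Chrna1 and at chr1:87205561-87205810 on the plus strand for Chrng.
Chrna1: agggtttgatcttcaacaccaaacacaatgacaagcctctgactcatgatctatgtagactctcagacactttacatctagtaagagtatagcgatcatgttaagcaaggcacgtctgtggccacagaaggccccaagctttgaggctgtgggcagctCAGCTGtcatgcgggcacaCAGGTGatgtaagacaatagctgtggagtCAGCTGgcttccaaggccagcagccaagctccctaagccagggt
Chrng: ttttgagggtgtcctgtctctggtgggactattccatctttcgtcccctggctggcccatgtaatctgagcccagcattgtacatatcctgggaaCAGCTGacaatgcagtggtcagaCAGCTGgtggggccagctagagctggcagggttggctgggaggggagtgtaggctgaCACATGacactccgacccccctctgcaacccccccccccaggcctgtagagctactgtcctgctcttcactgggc

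Both windows held 3 matches to CANNTG, of which 2 read CAGCTG. Those of Chrna1 began 92 and 44 bases before the start site, with CAGGTG at 73, and those of Chrng began 155 and 132 bases before it, with CACATG at 75. The windows of the other 4 genes were cut at the annotated gene, which left 221 bases for Chrnb1, 243 for Ache, 17 for Musk and at most 55 for Dok7, and none held CAGCTG. Chrnb1 had 2 matches to CANNTG, Ache 1, and Musk and Dok7 none. CAGCTG and the form CANNTG read the same on both strands. At least 1 CAGCTG occurred in the same window of 13% of all 32851 promoters in the table, and 2 or more occurred in 1.26%. CANNTG, which includes CAGCTG, occurred in 66.2%. CCGGAA, the N-box of some junction genes, was in none of the 6 genes' windows on either strand and was in 12.0% of promoters. These matches describe the letters and say nothing about binding.

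Of the 36400 barcodes, 19553 held at least 2000 UMIs and 18528 of those passed the filters on genes and mitochondrial counts, with a median of 4363.5 UMIs and a range of 2000 to 81075. Gates on marker UMIs put 14772 of them in 1 class, left 2287 in more than 1 class and 1469 in none. The library was mostly of monocytes and macrophages (8966 barcodes) and fibroblasts (3534), with 978 tenocytes, 107 Schwann cells and 320 satellite cells, the stem cells of muscle. As a class, satellite cells carried RNA of all 6 markers of their list (Pax7, Myf5, Calcr, Chodl, Fgfr4 and Cdh15), together at 1477 counts per 1000000 UMIs of the class (CPM). The myoblast gate found 30 barcodes. As a class they carried RNA of all 8 markers of its list, but single barcodes did not, and 21 of the 30 held a UMI of Myog, 1 of the 8. Of the 30, 29 also passed the muscle fibre gate. Muscle fibre markers stood in the 30 at 104453 CPM, against 106949 CPM in the 42 barcodes of the muscle fibre class. The 30 are called myoblast-gate barcodes here and not myoblasts. Whole muscle fibres are too large for a cell sorter. S100b itself, whose promoter drives the sorted reporter, had 4 UMIs in satellite cells, none in the myoblast gate and 24.9 CPM in Schwann cells. Of the kept barcodes 171 were also listed for the GFP- library, 2 of them satellite cells.

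Satellite cells held RNA of 4 of the 10 genes at more than 30 CPM, the clustering genes Musk and Rapsn and the receptor subunit genes Chrna1 and Chrnb1, and 6 UMIs or fewer of each of the others. Musk, Rapsn and Chrnb1 were highest in this class, whereas Chrna1 was higher in the myoblast gate. Musk, the receptor tyrosine kinase, stood at 67.5 CPM (58.5 to 77.5, 200 UMIs), Rapsn at 75.6 CPM (66.0 to 86.2, 224 UMIs), Chrnb1 at 60.1 CPM (51.6 to 69.6, 178 UMIs) and Chrna1 at 31.4 CPM (25.3 to 38.4, 93 UMIs). Lrp4, the agrin receptor, was at 2.02 CPM from 6 UMIs. Chrng had 2 UMIs, Chrnd, Dok7 and Ache had 1 each, and Colq had none in 2963281 UMIs, which allows a level of up to 1.01 CPM.

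**Figure D1:**
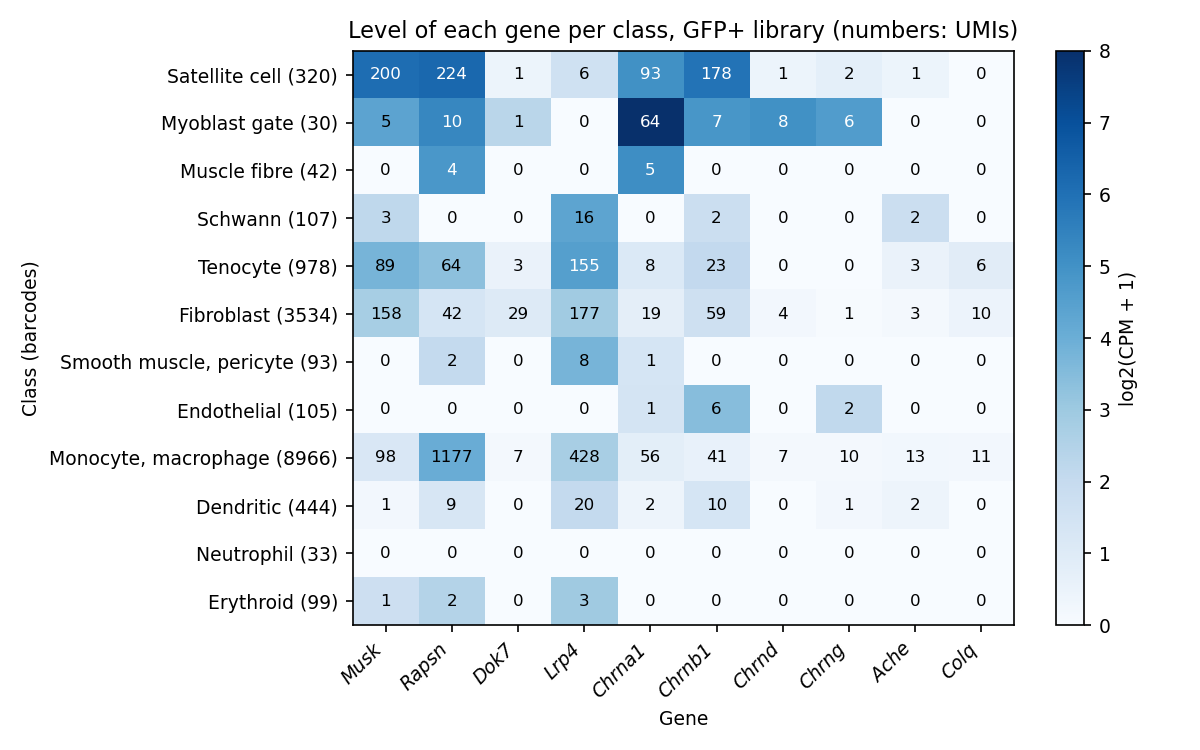
UMIs (numbers) and level on a log2(CPM + 1) scale (shading) of the 10 genes, on the x axis, in the 12 classes of at least 30 barcodes, on the y axis, of the GFP+ library. The dark cells are Musk, Rapsn and Chrnb1 in satellite cells and Chrna1 in the myoblast gate, whereas Ache and Colq are pale in every class.

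Taken over satellite cells and the myoblast gate together, 6 of the 10 genes were at least 4-fold higher than in all other classes together, and none was at least 4-fold lower. Across all 18709 genes with at least 20 UMIs, 4.89% were at least 4-fold higher and 11.9% at least 4-fold lower. The median log2 ratio of the 10 genes was 3.58, with Colq set at 3 counts, against 0.03 over all those genes. The 6 were Chrna1 at a log2 ratio of 5.99 (5.61 to 6.38), Chrnb1 at 5.61 (5.29 to 5.94), Chrnd at 4.93 (3.48 to 6.34), Musk at 4.45 (4.19 to 4.70), Chrng at 4.41 (2.95 to 5.76) and Rapsn at 2.74 (2.53 to 2.94). The ratios of Chrnd and Chrng rest on 9 and 8 UMIs, of which the myoblast gate gave 8 and 6. All other classes held 11 and 14 UMIs of these genes. The 2 genes thus reached the minimum of 20 UMIs only through the group where they were high, and their place in the count adds no support. Without them the count rests on Chrna1, Chrnb1, Musk and Rapsn. Dok7 and Ache had 2 and 1 UMIs in the combined classes, too few to place. Lrp4 went the other way at -1.86 (-3.31 to -0.73), 6.75 CPM in all other classes against 1.86 CPM, short of 4-fold.

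**Figure D2:**
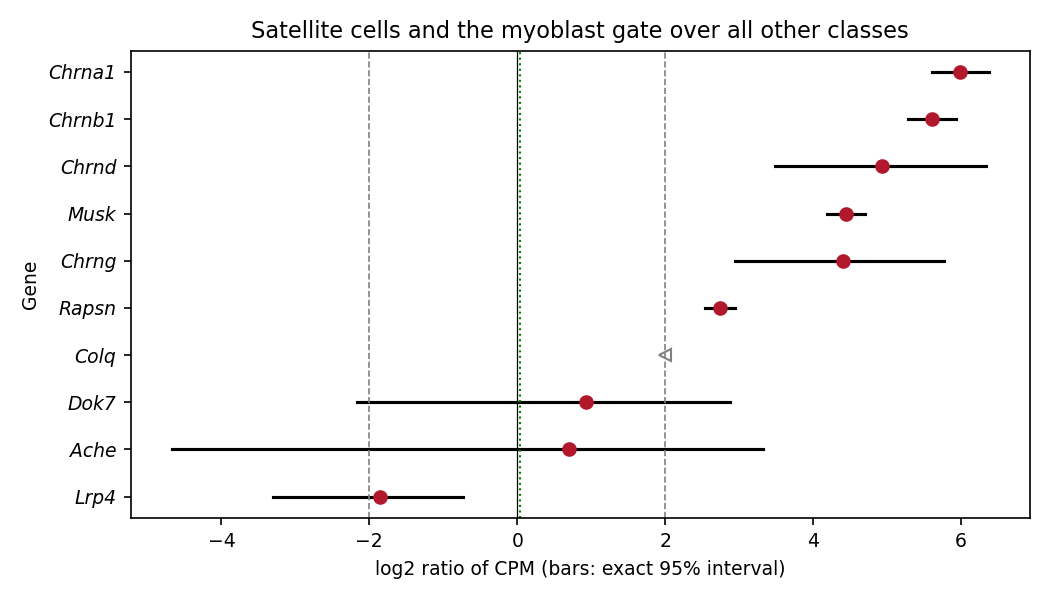
Log2 ratio of CPM in satellite cells and the myoblast gate over all other classes (x axis) for the 10 genes (y axis), with exact 95% intervals as bars, 4-fold as dashed lines and the median over all tested genes, 0.03, as a dotted line. The 6 genes from Rapsn at 2.74 to Chrna1 at 5.99 lie to the right of the 4-fold line, Lrp4 lies at -1.86, and Colq, with no UMI, is an upper bound set by 3 counts.

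Coordinates of the genes are those of RefSeq on GRCm38.p6. Musk (chr4:58285729-58377848, plus strand) was highest in satellite cells, 3.44-fold above the myoblast gate at 19.6 CPM (5 UMIs), which itself did not differ from tenocytes beyond counting error. Tenocytes, the fibroblasts of tendon, stood at 12.6 CPM (10.1 to 15.5, 89 UMIs in 68 barcodes), 2.18-fold above fibroblasts at 5.80 CPM (158 UMIs). Fibroblasts, Schwann cells (3 UMIs) and the erythroid class (1 UMI) followed, with no difference between neighbours beyond counting error. Macrophages were at 1.29 CPM and dendritic cells at 0.158 CPM from 1 UMI, while smooth muscle, endothelial, muscle fibre and neutrophil barcodes had none, where 3 counts would be 4.75, 4.94, 20.2 and 26.8 CPM. The muscle fibre class and neutrophils can therefore not be placed in this order. In satellite cells the UMIs were spread over 109 of 320 barcodes with at most 7 in any one.

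Satellite cell markers were also read in tenocytes. Chodl, on the satellite cell list, stood at 218 CPM in tenocytes and is not specific to satellite cells in this library. The other 5 markers of that list stood at 0.426 to 2.27 CPM there, with Pax7, the transcription factor that defines satellite cells, at 1.56 CPM from 11 UMIs. Satellite cells held 757 Pax7 UMIs beside 200 of Musk and tenocytes 11 beside 89. The Musk level of tenocytes was 12.9 CPM in barcodes of at least 5000 UMIs and 11.9 CPM in those with fewer, a log2 ratio of 0.11 (-0.64 to 0.93). The same ratio was 0.91 (0.25 to 1.63) in fibroblasts and -1.53 (-2.17 to -0.87) in macrophages, so Musk moved with depth in those classes. Neither satellite cell RNA nor droplets with 2 cells were tested as a source of the Musk RNA of tenocytes.

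Lrp4 (chr2:91457456-91513901) was highest in tenocytes at 22.0 CPM (18.7 to 25.8, 155 UMIs), Schwann cells at 18.9 CPM (10.8 to 30.8, 16 UMIs) and smooth muscle cells and pericytes at 12.7 CPM (5.47 to 25.0, 8 UMIs), and neighbours in that order did not differ beyond counting error. The erythroid class (3 UMIs), fibroblasts at 6.50 CPM and macrophages at 5.62 CPM followed, again with no difference between neighbours beyond counting error. Tenocytes exceeded fibroblasts 3.39-fold and satellite cells 10.9-fold. Schwann cells exceeded satellite cells by 3.23 on the log2 scale, with an interval of the ratio of satellite cells over Schwann cells from -4.87 to -1.80. Endothelial barcodes had no Lrp4 UMI, and neither had the myoblast gate or the muscle fibre class, where 3 counts would be 11.8 and 20.2 CPM.

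Within fibroblasts, Lrp4 varied by subset. A first subset of 170 barcodes had at least 3 UMIs over at least 2 of Apod, Tenm2 and Col28a1, genes of nerve-associated fibroblasts. It held 23.4 CPM (17.1 to 31.2, 46 UMIs), or 18.5 CPM without the barcode with 10 of those UMIs. The 676 barcodes with Pi16 and Dpp4, markers of adventitial fibroblasts, held 4.36 CPM (41 UMIs), a log2 difference of 2.42 (1.78 to 3.07). The 1501 barcodes gated on Smoc2, Cxcl14 and Hsd11b1 by the rule of the first subset lay between, at 7.93 CPM (6.53 to 9.54, 112 UMIs). Musk was at 13.7 CPM in the first subset and 5.96 CPM in the second, a log2 difference of 1.20 (0.48 to 1.89), and at 6.80 CPM in the third. These subsets were chosen after values of these data were seen.

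Dok7 (chr5:35056571-35087839), the cytoplasmic adaptor of MuSK, had few UMIs in any class. Fibroblasts held 29 of its 41 UMIs in classified barcodes, at 1.06 CPM (0.713 to 1.53), 11.6-fold above macrophages at 0.0920 CPM. The myoblast gate had 1 UMI, at 3.92 CPM (0.0993 to 21.8). Schwann cells and the muscle fibre class had none, where 3 counts would be 3.55 and 20.2 CPM, so a level like that of fibroblasts would not have been detectable there. The Dok7 UMIs of fibroblasts lay in 27 barcodes with at most 2 each.

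Rapsn (chr2:91035472-91045729) was found outside muscle cells as well. Satellite cells at 75.6 CPM were 1.93-fold above the myoblast gate at 39.2 CPM (18.8 to 72.1, 10 UMIs), and the muscle fibre class followed at 26.9 CPM (4 UMIs). Macrophages stood at 15.5 CPM (14.6 to 16.4) from 1177 UMIs in 866 barcodes, above tenocytes at 9.09 CPM (64 UMIs). Dendritic cells, the nearest class to macrophages, had only 9 UMIs at 1.42 CPM, 10.9-fold below macrophages. Fibroblasts were at 1.54 CPM, but at 0.718 CPM in barcodes of at least 5000 UMIs, at 4.26 CPM in those with fewer, and at 0.229 CPM once the pooled profile of the library was subtracted at the share set by macrophage markers. Schwann cells and endothelial barcodes had none, where 3 counts would be 3.55 and 4.94 CPM. Macrophages had 1177 Rapsn UMIs beside 98 of Musk, and satellite cells 224 beside 200. RNA of satellite cells as a source of macrophage Rapsn was not tested.

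Macrophages were grouped by at least 5 UMIs over at least 2 genes of a set, so a barcode need not hold every gene named. Those gated on Lyve1, Folr2, Fcna and Cd163, markers of resident macrophages, held 18.7 Rapsn CPM (17.5 to 20.1, 4080 barcodes). Those gated on Gpnmb, Fabp5, Spp1 and Trem2 held 16.5 CPM (15.1 to 18.1, 2644 barcodes). Those gated on Chil3, Ly6c2, Plac8 and Ccr2, genes of monocytes, held 7.08 CPM (5.70 to 8.68, 1018 barcodes). A barcode could be in more than 1 of these subsets, which were also chosen after values were seen. In GENCODE M39, Psmc3, a proteasome subunit gene on the same strand, begins 8272 bases beyond the end of Rapsn. Rapsn stood at 15.0 CPM in macrophages with a Psmc3 UMI and at 16.2 CPM in those without one. The 2 groups differed in median depth, at 10917 and 3845.5 UMIs. Rapsn of macrophages itself moved with depth, by a log2 ratio of 0.40 (0.14 to 0.68) for barcodes of at least 5000 UMIs over those with fewer. The part of neighbouring genes in the Rapsn counts was not tested. Gm13778, a non-coding gene, overlaps Rapsn on the opposite strand and stood at 1.59 CPM in macrophages.

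**Figure D3:**
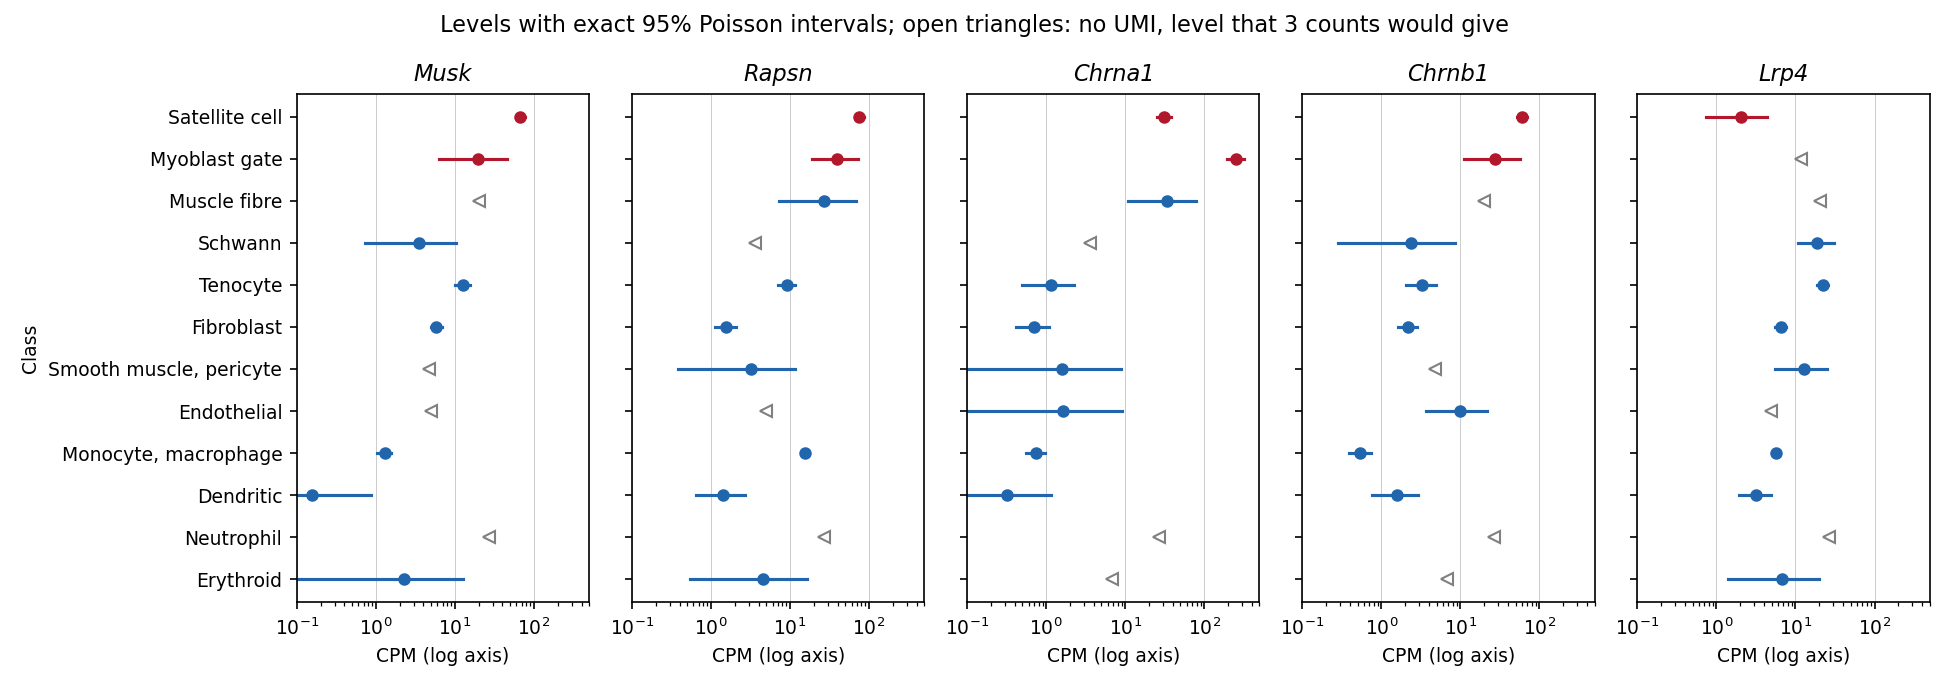
CPM on a log axis (x) of Musk, Rapsn, Chrna1, Chrnb1 and Lrp4 in the 12 classes (y axis), with exact 95% Poisson intervals as bars that may run past the left edge, and open triangles at the level 3 counts would give where a class had no UMI. Musk and Chrnb1 peak in satellite cells at 67.5 and 60.1 CPM, Chrna1 peaks in the myoblast gate at 251 CPM, Rapsn also shows 15.5 CPM in macrophages, and Lrp4 is highest in tenocytes at 22.0 CPM.

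Chrna1 (chr2:73563281-73580338, minus strand), which carries the acetylcholine binding site, was highest in the myoblast gate at 251 CPM (193 to 320.5, 64 UMIs in 18 of 30 barcodes). This was 8.0-fold above satellite cells, a log2 ratio of 3.00 (2.52 to 3.47). The muscle fibre class at 33.6 CPM (10.9 to 78.4, 5 UMIs) and satellite cells at 31.4 CPM did not differ beyond counting error. In the other classes of at least 30 barcodes with a Chrna1 UMI it lay at or below 1.65 CPM, the endothelial value from 1 UMI. Schwann cells, the erythroid class and neutrophils had none, where 3 counts would be 3.55, 6.79 and 26.8 CPM. In the myoblast gate 12 barcodes had no Chrna1 UMI, 11 had 1 to 3, and the highest had 9.

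Of the members with at least 20 UMIs in satellite cells and the myoblast gate, Chrna1 was the only one of 4 that was at least 4-fold higher in the myoblast gate, and none was at least 4-fold lower. Over all 9263 genes with as many UMIs 6.26% were at least 4-fold higher and 23.4% at least 4-fold lower, and the median log2 ratio was -0.64. Musk was lower in the myoblast gate by a log2 ratio of -1.78 (-3.42 to -0.54), Chrnb1 by -1.13 (-2.47 to -0.06) and Rapsn by -0.95 (-2.03 to -0.04). The other 6 members had fewer than 20 UMIs in these classes and were not counted.

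The gamma and delta subunit genes, which are neighbours (Chrnd at chr1:87190597-87200070 and Chrng at chr1:87205811-87211835, both on the plus strand), were highest in the myoblast gate. Chrnd stood there at 31.4 CPM (13.5 to 61.8), with 8 UMIs in 8 barcodes, and Chrng at 23.5 CPM (8.63 to 51.2), with 6 UMIs in 5 barcodes. Satellite cells had 1 and 2 UMIs of these genes, log2 ratios of 6.54 (3.64 to 12.0) and 5.12 (2.64 to 8.46) in favour of the myoblast gate. Macrophages, with 8966 barcodes, had 7 Chrnd and 10 Chrng UMIs, 0.0920 and 0.131 CPM. The 2 Chrng UMIs of endothelial cells came from 1 barcode. Chrne, the epsilon subunit of innervated fibres, had no UMI in satellite cells, in the myoblast gate or in the muscle fibre class, where 3 counts would be 1.01, 11.8 and 20.2 CPM. The muscle fibre class had no Chrnd or Chrng UMI either, so its counts cannot show which of gamma and epsilon it held.

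RNA of several subunits was found in the same barcodes of the myoblast gate. There 10 of 30 barcodes held a Chrnd or Chrng UMI, of which 3 held both, 8 also held Chrna1 and 8 also held Myog, the gene of myogenin and a marker of the gate itself. All 5 barcodes with Chrng held Chrna1 as well. Over the whole gate, 18 of the 30 barcodes held Chrna1 and 21 held Myog. These counts were not thinned. Chrna1 was at 254 CPM (190 to 332) in the barcodes with a Myog UMI and 239 CPM (119 to 427) in the 9 without. The second value rests on 11 UMIs in 3 barcodes, was 141 CPM without the barcode that held 6 of them, and is too imprecise to show whether Chrna1 differed with Myog.

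Chrnb1 (chr11:69784036-69795966, minus strand), the beta subunit, was higher in satellite cells than in the myoblast gate, at 60.1 against 27.4 CPM (11.0 to 56.6, 7 UMIs). Of the 7 UMIs, 2 came from the single barcode that did not pass the muscle fibre gate, and the 29 others stood at 20.4 CPM. Endothelial barcodes were at 9.89 CPM (3.63 to 21.5, 6 UMIs in 6 barcodes), just above tenocytes at 3.27 CPM by a log2 ratio with a lower bound of 0.01, and fibroblasts were at 2.17 CPM. Macrophages were lowest of the larger classes at 0.539 CPM. Their level depended on depth and was 4.43-fold higher in barcodes under 5000 UMIs. The log2 ratio of deeper over shallower barcodes was -2.15 (-3.10 to -1.16). In GENCODE M39, Chrnb1 begins 121 bases from Fgf11 on the same strand and ends 11 bases from Zbtb4 on the other. The muscle fibre class had no Chrnb1 UMI, where 3 counts would be 20.2 CPM.

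Genes of the synaptic cleft, Ache (chr5:137288247-137294466) and Colq (chr14:31523082-31577863), were barely seen. Ache had 24 UMIs in all classified barcodes, 13 of them in macrophages at 0.171 CPM, and 2 in Schwann cells at 2.37 CPM (0.287 to 8.56). Colq had 28, of which 11 were in macrophages, 10 in fibroblasts and 6 in tenocytes, where it stood at 0.852 CPM (0.313 to 1.85). Neither gene had a UMI in the myoblast gate or in the muscle fibre class, which held 255014 UMIs and 148744 UMIs.

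Shares of barcodes with a UMI were taken after each barcode was thinned to 2000 UMIs. In satellite cells, with a median depth of 8345 UMIs, 12.5% of barcodes held Rapsn (9.08 to 16.6), 11.6% Chrnb1 (8.27 to 15.6), 10.9% Musk (7.74 to 14.9) and 5.00% Chrna1 (2.88 to 7.99). Dendritic cells, taken as the comparison class outside muscle and with a median of 13945.5 UMIs, held Rapsn in 0.450% and Chrna1 in 0.450% of barcodes, and Chrnb1 and Musk in 0 of 444, which allows up to 0.676% at this depth. Unthinned, they held Chrnb1 in 2.25% and Rapsn in 2.03% of barcodes, and their Chrnb1 level of 1.58 CPM (10 UMIs) was above that of macrophages beyond counting error, so they are no empty background for Chrnb1. Macrophages (median 7548 UMIs) held Rapsn in 2.79% (2.46 to 3.15) and Musk in 0.301% (0.199 to 0.438). In the myoblast gate (median 5711.5 UMIs) 40.0% held Chrna1 (22.7 to 59.4). Without thinning the shares in satellite cells were 43.8% for Rapsn, 35.9% for Chrnb1, 34.1% for Musk and 13.8% for Chrna1.

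After thinning, 63.3% of the myoblast-gate barcodes (43.9 to 80.1) and 34.4% of satellite cells (29.2 to 39.9) held at least 1 member, against 4.84% of macrophages, 3.71% of fibroblasts, 8.90% of tenocytes and 1.80% of dendritic cells (0.781 to 3.52). Without thinning, 75.0% of satellite cells and 9.01% of dendritic cells held one. In satellite cells none was detected in 80 of 320 barcodes, 1 in 111, 2 in 90 and 3 in 32, and 1 barcode held 7. Musk and Rapsn were found together in 53 barcodes, which is 48.6% of those with Musk and 37.9% of those with Rapsn. Chrna1 and Rapsn shared 28, which is 63.6% of the 44 barcodes with Chrna1, while Chrna1 and Musk shared 14, or 31.8%. These shares rise with depth and were not thinned.

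Within satellite cells, Chrna1 was higher in barcodes with Myod1 RNA and in those with RNA of cycling genes. In the 100 barcodes with a Myod1 UMI, the gene of the myogenic factor of activated satellite cells, it stood at 54.3 CPM (41.4 to 70.1) against 18.1 CPM (12.5 to 25.3) in the 220 without, a log2 ratio of 1.59 (0.95 to 2.24). Mki67, Top2a, Birc5, Cdk1 and Cenpf mark dividing cells, and 13 barcodes held 3 or more UMIs of these from more than 1 of the genes. There it stood at 92.7 CPM (62.1 to 133) against 24.1 CPM (18.6 to 30.8) in the other 307, a log2 ratio of 1.94 (1.26 to 2.60). One cycling barcode held 12 of the 29 UMIs, and without it the level was 73.4 CPM. The splits share barcodes, since 9 of the 13 cycling barcodes held Myod1 and 27 of the 29 UMIs lay in those 9. Outside the cycling gate, Chrna1 stood at 38.1 CPM in the 91 barcodes with Myod1, or 28.8 CPM without the barcode that held 8 UMIs, and at 17.7 CPM in the 216 without Myod1, a log2 ratio of 1.11 (0.35 to 1.86). The corresponding log2 ratios of Musk, Rapsn and Chrnb1 all had intervals that included 0, from -0.33 to 0.32 for Myod1 and from -0.36 to 0.09 for cycling. The splits were chosen after values were seen, cycling barcodes had a median depth of 19859 UMIs against 8210 and macrophage markers at 99.1 CPM against 613 CPM, and the part of depth, of RNA from other cells or of 2 cells in 1 droplet was not tested.

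**Figure D4:**
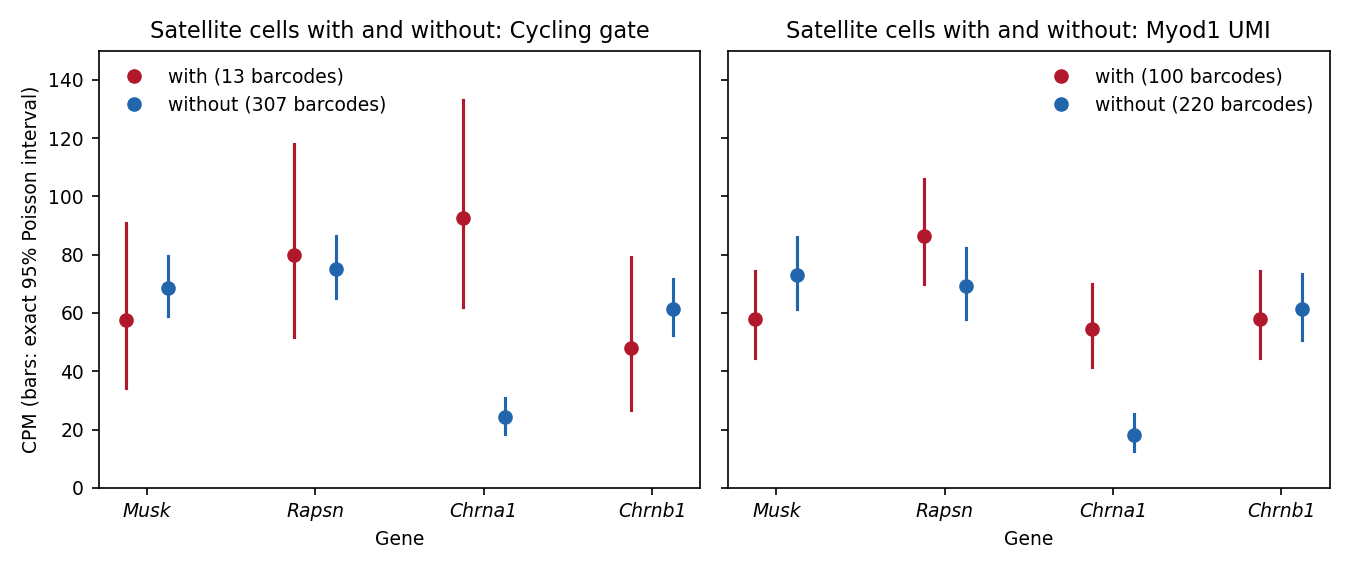
CPM (y axis, from 0) of Musk, Rapsn, Chrna1 and Chrnb1 (x axis) in satellite cells with (red) and without (blue) the cycling gate on the left and a Myod1 UMI on the right, with exact 95% Poisson intervals as bars. Chrna1 is at 92.7 against 24.1 CPM and at 54.3 against 18.1 CPM, whereas the bars of the other genes overlap.

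Rapsn was lower in the shallower satellite cells. It was at 79.7 CPM in the 262 barcodes of at least 5000 UMIs and at 23.4 CPM in those with fewer, where 5 UMIs were counted and macrophage markers stood at 2499 CPM against 407 CPM. Musk stood at 68.4 and 56.1 CPM in the same depth groups, Chrnb1 at 61.5 and 42.0 CPM, and Chrna1 at 32.7 and 14.0 CPM, the last from 3 UMIs. The intervals of these 3 log2 ratios included 0. Over satellite cells as a whole, fibroblast markers stood at 992 CPM, against 28163 CPM in fibroblasts, and macrophage markers at 559 CPM, against 23980 CPM in macrophages. By the macrophage markers, the pooled profile of the library made up an estimated 3.81% of the UMIs of satellite cells, 0.963% of those of the myoblast gate and 10.2% of those of tenocytes. With that profile subtracted at these shares, satellite cells stood at 70.0 CPM for Musk, 78.1 CPM for Rapsn, 62.3 CPM for Chrnb1 and 32.5 CPM for Chrna1. Tenocytes stood at 13.5 CPM for Musk and the myoblast gate at 253 CPM for Chrna1. These levels lay within the counting intervals given above, but the outcome was largely set beforehand. The pooled profile held Musk at 4.63 CPM, Rapsn at 11.9 CPM, Chrnb1 at 2.67 CPM and Chrna1 at 2.09 CPM. Levels above the pool move little under such a subtraction, so it could not show how much of this RNA came from other cells. No share of satellite cells was estimated from fibroblast markers.

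The genes whose levels over the 9 classes of at least 50 barcodes were most like each member's were named by Pearson's r on log2(CPM + 1) among 16589 genes. These are descriptions over 9 points from 1 library, and the myoblast gate and the muscle fibre class, with fewer barcodes, are not among them. Chrna1 was most like Asb5 (r = 0.968), Myf5 (0.961) and Calcr (0.960), the last 2 of which are in the satellite cell gate. The class in which Chrna1 was highest, the myoblast gate, did not enter this likeness, and satellite cell markers stood there at 62.7 CPM against 1477 CPM in satellite cells. Musk was most like Chrna7 (0.961), E130114P18Rik (0.958) and Capn6 (0.941). Rapsn was most like Mybpc1 (0.914), Tenm4 (0.896) and Ankrd1 (0.886), and Chrnb1 like Peg12 (0.953), Eif3j1 (0.952) and Sox11 (0.952). Lrp4 was most like Hexdc (0.933) and B230217O12Rik (0.931), which were highest in Schwann cells.

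Of 59 further genes of the junction in 6 lists, 49 had at least 20 UMIs in the comparison of satellite cells and the myoblast gate with all other classes. Of these, 7 were at least 4-fold higher and 5 at least 4-fold lower, beside 4.89% and 11.9% of all genes. Myog, 1 of the 7, is a marker of the myoblast gate, so its call was set by the gate. Named are the 4 genes of each list with the most UMIs and, chosen after their values were seen, those past 4-fold and a few that were high in 1 class. Among the other acetylcholine receptor subunits, 5 of 12 could be compared and 1 was higher, Chrna7 of the neuronal alpha7 receptor, with 30 UMIs in satellite cells (10.1 CPM) against 0.651 CPM in all other classes. Chrna9 stood at 4.72 CPM in satellite cells and 8.71 CPM in all other classes, Chrnb2 at 0.675 and 0.526 CPM. Chrne had 37 UMIs in all other classes.

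Agrin (Agrn) and the partners of MuSK showed no gene past 4-fold of 14 in this comparison. In the myoblast gate over satellite cells, 7 of the 13 that could be compared were at least 4-fold lower (Crk, Abl1, Abl2, Cttn, Apc, Macf1 and Nes), beside 23.4% of all genes, with Macf1 at 11.8 against 105 CPM. In the same comparison 5 of 8 genes of the dystrophin complex, 4 of 9 transcription and denervation genes and 1 of 5 basal lamina genes were at least 4-fold lower. Agrin itself was at 54.5 CPM in Schwann cells, 5.74 CPM in satellite cells and 5.64 CPM in all other classes. Nestin (Nes), an intermediate filament of activated precursors and Schwann cells, was nearest to the limit at a log2 ratio of 1.71. The 4 with the most UMIs, Macf1, Abl2, Ctnnb1 and Crk, had log2 ratios of -1.26, -1.04, -0.11 and -0.60.

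Of the dystrophin complex, 2 of 8 genes were at least 4-fold higher, dystrophin (Dmd) at 1035 CPM and dystroglycan (Dag1) at 685 CPM in satellite cells against 25.0 and 58.1 CPM in all other classes. Both were lower in the myoblast gate, at 19.6 and 23.5 CPM. The complex gene Dtna went the other way, at 94.1 CPM in the myoblast gate against 1.35 CPM in satellite cells. Utrophin (Utrn), the homologue of dystrophin at the endplate, was at 919 CPM in Schwann cells and 215 CPM in satellite cells. The log2 ratios of Sntb2 and of plectin (Plec) were -0.58 and 0.02.

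Of 10 genes of the synaptic basal lamina, the laminin gene Lama5 was higher, at 8.10 CPM in satellite cells against 1.41 CPM, and Lama4, Nid1, Col13a1 and Col4a5 were at least 4-fold lower. Lama4 stood at 2.02 CPM in satellite cells against 70.1 CPM in all other classes, and Col13a1, a transmembrane collagen of the junction, at 42.9 CPM in tenocytes. Perlecan (Hspg2), which holds acetylcholinesterase in the lamina, had a log2 ratio of 0.79 and laminin beta 2 (Lamb2), a marker of the synaptic lamina, of -1.24. Among genes of acetylcholine synthesis and breakdown, 2 of 5 could be compared and neither passed 4-fold. Chat and Slc18a3, of the motor nerve terminal, had no UMI in any class shown, and Bche, the gene of butyrylcholinesterase, stood at 55.7 CPM in Schwann cells.

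Of 10 transcription and denervation genes, Myog, Ncam1 and Gadd45a were higher and Hdac9 lower. Myog is part of the myoblast gate, so its 333 CPM there and its place among the higher genes are given by the gate. Ncam1, an adhesion molecule of denervated muscle and satellite cells, stood at 427 CPM in satellite cells against 15.4 CPM in all other classes, and at 39.2 CPM in the myoblast gate. Gadd45a, a stress response gene induced by denervation, was at 1439 CPM in the myoblast gate, 203 CPM in satellite cells, 336 CPM in the muscle fibre class and 33.0 CPM in all other classes. Runx1, with the most UMIs of the list, stood at 920 CPM in satellite cells and 663 CPM in all other classes. The log2 ratio of Hdac4 was 0.73.

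**Figure D5:**
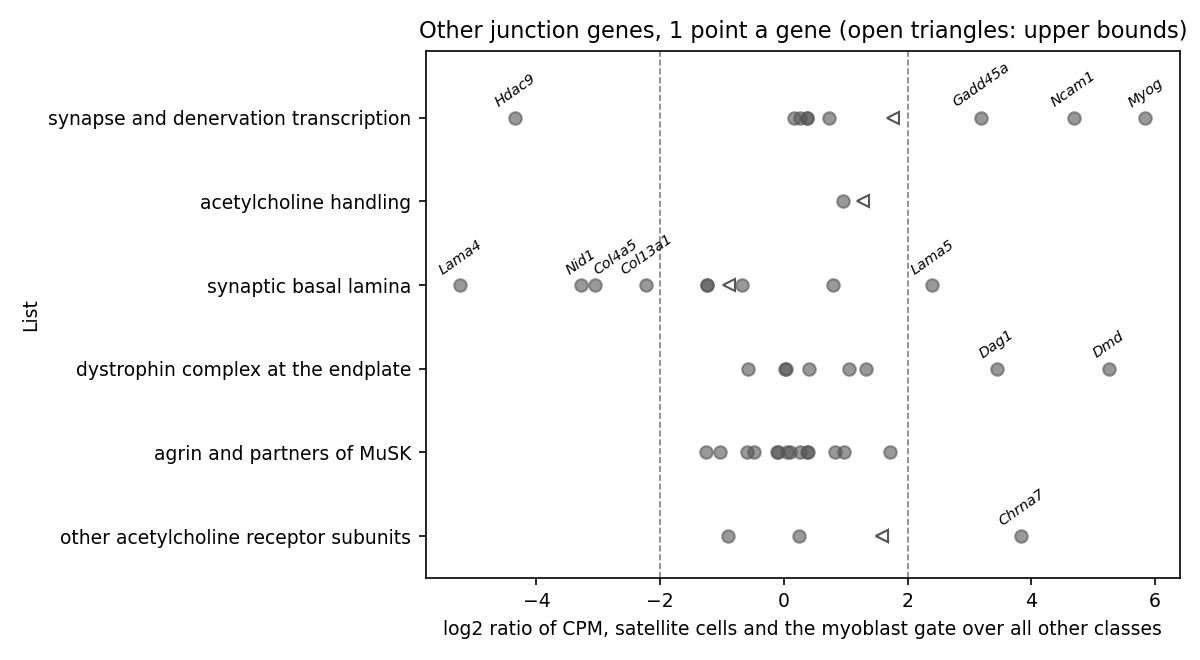
Log2 ratio of CPM in satellite cells and the myoblast gate over all other classes (x axis) for the genes of the 6 lists (y axis) that had at least 20 UMIs, 1 point a gene, with 4-fold as dashed lines and genes past it named. Open triangles are upper bounds for genes with no UMI in satellite cells and the myoblast gate. The 14 agrin and MuSK partners lie within 4-fold. The widest spread is in the basal lamina and transcription lists, from Lama4 and Hdac9 on the left to Myog, a marker of the myoblast gate, on the right.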

How the data were processed

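The authors deposited a matrix of raw UMI counts per gene and barcode, without normalization. The submitters' processing notes name Cell Ranger 7.1.0, Seurat 4.30 and mm10, and the matrix header names Cell Ranger 8.0.1. Kept here was each barcode of 2000 or more UMIs whose genes exceeded 200 and whose mitochondrial share was below 10%. A barcode entered a class with at least 3 UMIs over at least 2 of its markers and a minimum share of its counts, set per class between 0.03% and 1%, and barcodes in several unrelated classes were left out, which also served against doublets. UMIs were summed per class and given as CPM. Levels have exact Poisson, shares exact Clopper-Pearson and ratios exact conditional binomial intervals at 95%. A 0 was bounded with 3 counts.

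With 1 library per fraction no test was possible. A fixed 4-fold over genes with at least 20 UMIs stood in its place. Barcodes were thinned to 2000 UMIs for shares. Python 3.11.15, numpy 2.4.6, scipy 1.17.1 and scanpy 1.11.5 (Scrublet) were used. The ratio step was tested on simulated Poisson counts of 32287 genes. In the comparison of satellite cells and the myoblast gate with all other classes, 100% of genes changed 8-fold were called, and 0.491% of the others. Only well-counted genes were changed. The result therefore does not cover genes with few UMIs, such as Chrnd and Chrng, or variation between barcodes. Named by rule were all members, the 4 genes of each pathway list with the most UMIs, and the 3 genes most alike, of which some are not reported here. The members, lists and gates were chosen with earlier results of these data known, and the subsets, with genes named beyond the rule, after values were seen. Of the GFP- library only the list of barcodes was used.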

Additional observations from a re-analysis of the deposited data

Results flagged for a closer look

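Some barcodes used in no comparison held member RNA above the level in all other classes. Under 2000 UMIs, 62 barcodes that passed the muscle fibre gate held Chrna1 at 55.4 CPM (18.0 to 129) from 5 UMIs, against 0.768 CPM in all other classes. The kept muscle fibre class stood at 33.6 CPM (10.9 to 78.4), an overlapping interval. Among the 1469 barcodes of no class, Musk stood at 5.55 CPM (4.06 to 7.40) against 2.92 CPM and Chrna1 at 2.77 CPM (1.76 to 4.16) against 0.768 CPM. Among the 2287 barcodes of more than 1 class, Musk stood at 5.34 CPM (4.04 to 6.94), Lrp4 at 11.1 CPM (9.14 to 13.3) against 6.75 CPM, Chrna1 at 2.38 CPM (1.54 to 3.52) and Chrnb1 at 3.72 CPM (2.65 to 5.09) against 1.18 CPM. Satellite cell markers stood at 27.5 CPM in the barcodes of no class and at 81.5 CPM in those of more than 1 class. Their part in these levels was not tested.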

How the results depend on the processing

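Of 13 alternatives for levels and counts, 2 (barcodes also listed for the GFP- library left out, muscle fibre barcodes joined to the myoblast gate) were chosen after seeing the data. The number of members at least 4-fold higher in satellite cells and the myoblast gate was 5 or 6. Chrnd was the member not counted under 4 alternatives (at least 5000 UMIs, the stricter mitochondrial filter, marker lists without their strongest marker, Scrublet), where it had fewer than 20 UMIs while its log2 ratio was 3.92 or more under all 13. The number in the myoblast gate over satellite cells was 1 under all 13. Chrna1 in satellite cells was 24.6 CPM as a mean over barcodes, and in the myoblast gate 171 CPM with the muscle fibre barcodes joined. Shares in satellite cells moved with thinning: at 1000 UMIs Musk was 5.00%, Rapsn 8.13% and Chrnb1 4.38%, and without thinning 34.1%, 43.8% and 35.9%, with Chrna1 at 13.8%. Of 325 recomputed values of 25 levels, 310 stayed within the level's counting interval, and Rapsn in fibroblasts ran from 0.229 CPM with the pooled library profile subtracted to 3.22 CPM as a mean over barcodes. In the myoblast gate, within wide counting intervals, Musk ran from 12.4 to 33.9 CPM, Chrnb1 from 13.5 to 41.0 CPM, Chrnd from 19.8 to 50.6 CPM and Chrng from 14.9 to 33.9 CPM. As a mean over barcodes Musk and Chrnb1 in macrophages were 2.02 and 0.920 CPM. Scrublet scores removed 7.41% of barcodes, 24 of them satellite cells. No paired analysis was possible because 1 library was analysed. Ache, Colq, Dok7, Chrnd and Chrng had 47 UMIs or fewer in the kept barcodes, and an absence of a difference in them could not be read at this depth.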
